A study of Mus musculus with 4 samples.

Results

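The Tribbles genes Trib1, Trib2 and Trib3 were followed in a JQ1-resistant and a JQ1-sensitive Eμ-Myc lymphoma line. The 3 genes were taken by symbol from a table of 16591 genes, and 2 of them, Trib1 and Trib2, passed the filter on low counts that left 11945 genes for testing. They were chosen by their levels in these same libraries, the higher Trib2 of the resistant line being set against its paralogues, so their own difference between the lines is described here without a test. JQ1R is the resistant line and JQ1S the sensitive line, each a single line with 2 libraries, so what goes with resistance and what sets these lines apart otherwise cannot be told apart. Both are C57BL/6 mouse B-lymphoma cells in which an immunoglobulin heavy-chain enhancer (Eμ) drives Myc. JQ1 blocks the bromodomains of BET proteins, which read acetylated histones. The labels describe early-passage cells of both lines in medium and name no drug added to it, and they do not say whether replicates were separate cultures, so p-values measure the spread between these libraries, which may be technical.

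Tribbles proteins are pseudokinases: they have the fold of a protein kinase but little or no catalytic activity, and they work as scaffolds. TRIB1 and TRIB2 bring the ubiquitin ligase COP1 to substrates such as the myeloid factor C/EBPα, and either can drive acute myeloid leukaemia in mice. TRIB2 has also been described as a restraint on FOXO3 in human melanoma cells, and TRIB3 as a target of ATF4 and CHOP in the integrated stress response that binds AKT.

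Total counts were 10928239 and 11809635 in the JQ1R libraries and 13048103 and 10346007 in the JQ1S libraries. Levels are given as CPM, read counts set relative to library size after TMM scaling, on which 1 read is worth 0.0771 to 0.0972 CPM. Of 14 B-cell markers all 14 were in the table and 13 were tested. Their summed level was 5169 to 5278 CPM in JQ1R and 4850 to 4930 CPM in JQ1S, and 3 of the 13 were called higher in JQ1R by the edgeR test used throughout, against 2.2% of all tested genes. Myeloid markers, of which 5 of 12 were in the table, summed to 2.27 to 2.38 CPM in JQ1R and 1.55 to 1.7 CPM in JQ1S. T-cell markers, 3 of 8 in the table, summed to 15.2 to 16.1 CPM in JQ1R and 14.3 to 14.5 CPM in JQ1S, nearly all of it Cd2, which some B-lineage cells of the mouse also express. Erythroid markers, 2 of 7, summed to 0.505 to 0.549 CPM in JQ1R and 0.539 to 0.680 CPM in JQ1S, and fibroblast markers, 0 of 7, had no row in the table. The defining genes Cd3e, Cd4, Cd8a, Lyz2, Elane and Col1a1 likewise had no row. The part of these marker levels in the results below was not tested.

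Trib2, on the minus strand of mouse chromosome 12 from 15791727 to 15816922 (GRCm38), stood higher in resistant cells. It had 232 and 299 reads in the JQ1R libraries, against 123 and 108 reads in the JQ1S libraries. These were 21.2 and 25.2 CPM in JQ1R, against 9.48 and 10.5 CPM in JQ1S. Both resistant libraries were therefore above both sensitive ones, and the lower resistant library held 2.02 times the CPM of the higher sensitive library. Libraries of the lines did not overlap for 47.3% of tested genes, and for 24.1% the JQ1R libraries were the higher ones. The exact 95% Poisson intervals, which cover counting error only, ran from 18.6 to 24.2 and from 22.4 to 28.2 CPM in JQ1R and overlapped each other. In JQ1S they ran from 7.88 to 11.3 and from 8.61 to 12.7 CPM. The mean was 23.2 ± 2.78 CPM in JQ1R and 9.99 ± 0.72 CPM in JQ1S (SD, n = 2 each). The log2 change, JQ1R over JQ1S, was 1.23 ± 0.13 (SE, edgeR), a 2.34-fold higher level, which ranked 87 from the highest among tested genes. In a bulk sample, fewer cells that carry a transcript and less of it per cell cannot be told apart.

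Trib1, on the plus strand of chromosome 15 from 59648350 to 59657099, was the most abundant of the 3 in CPM. It had 335 and 383 reads in JQ1R, against 487 and 393 reads in JQ1S. On the CPM scale these were 30.7 and 32.2 in JQ1R, against 37.5 and 38.2 in JQ1S. Here both resistant libraries lay below both sensitive ones, as they did for 23.2% of tested genes, and the gap was small: the JQ1R libraries stood at 0.803 to 0.859 of the JQ1S level across all pairs of libraries. The mean was 31.5 ± 1.11 CPM in JQ1R and 37.9 ± 0.47 CPM in JQ1S (SD, n = 2 each). Its log2 change was -0.27 ± 0.08 (SE, edgeR), a level 1.20-fold lower in JQ1R, which ranked 829 from the lowest among tested genes. The exact 95% Poisson intervals of Trib1 ran from 34.3 to 41.0 and from 34.5 to 42.2 CPM in JQ1S. That of JQ1R replicate 2, 29.1 to 35.6 CPM, overlapped both, and that of JQ1R replicate 1, 27.5 to 34.1 CPM, lay below them. Trib1 and Trib2 thus differed in opposite directions between the same libraries, with a small difference for Trib1.

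Trib3, on the minus strand of chromosome 2 from 152337422 to 152344032, was barely detected. It had 9 and 6 reads in JQ1R, against 7 and 6 reads in JQ1S, which is 0.824 and 0.505 CPM in JQ1R against 0.539 and 0.583 CPM in JQ1S. The libraries of the lines overlapped, and the gene did not pass the filter on low counts. The ratio of its summed read rates, JQ1R over JQ1S, was 1.18 with an exact 95% interval of 0.523 to 2.69, which covers counting error only. A ratio as large as that of Trib2 lies inside this interval, so at this depth Trib3 was not shown to differ from Trib2 in its change, nor to share it. Without JQ1R replicate 1 the log2 ratio of Trib3 was -0.15, against 0.24 with all libraries.

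**Figure D1:**
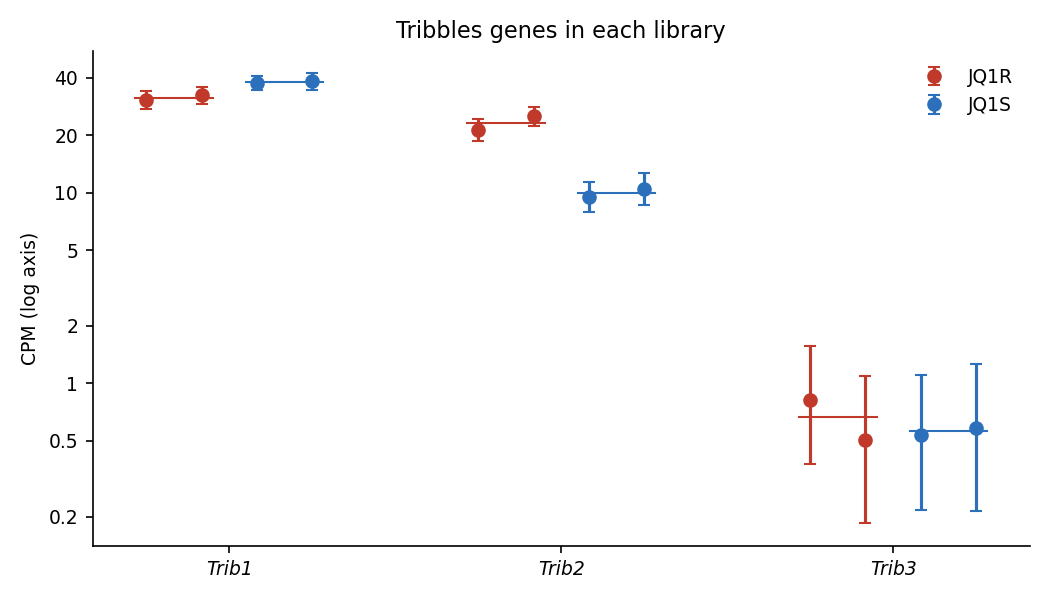
Level of Trib1, Trib2 and Trib3 in each library in CPM on a log axis, with JQ1R in red to the left of JQ1S in blue, exact 95% Poisson intervals as bars and the mean of each line as a short horizontal line. Trib2 stood at 21.2 and 25.2 CPM in JQ1R against 9.48 and 10.5 CPM in JQ1S, Trib1 was slightly lower in JQ1R, and the 4 values of Trib3 overlapped below 1 CPM.

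The sequences of the 3 genes were compared with each other. How the aligner placed their reads was not examined. The coding sequences of Trib1 and Trib2 were identical at 66.4% of aligned bases, those of Trib1 and Trib3 at 63.2%, and those of Trib2 and Trib3 at 61.7%. No stretch of 25 bases was shared between annotated transcripts of any pair (0 in each comparison). None of the exons of the 3 genes overlapped those of another annotated gene on either strand (0 bases).

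To compare the genes with each other, CPM was divided by the length of the merged exons in kilobases, which were 6248 bases for Trib1, 4335 for Trib2 and 2125 for Trib3. Per kilobase, Trib2 stood at 4.90 and 5.81 in JQ1R, against 2.19 and 2.42 in JQ1S. Trib1 stood at 4.91 and 5.16 in JQ1R, against 6.01 and 6.11 in JQ1S. Trib3 stood at 0.388 and 0.238 in JQ1R, against 0.254 and 0.274 in JQ1S. The order in JQ1S was therefore Trib1, Trib2, Trib3 with no overlap between neighbours, whereas in JQ1R the ranges of Trib1 and Trib2 overlapped and only Trib3 stood apart. By mean level per kilobase over the 4 libraries Trib1 lay at percentile 51.0 of 12055 protein-coding genes of the table, Trib2 at 43.4 and Trib3 at 18.4.

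The balance between Trib2 and Trib1 differed between the lines, with no overlap of libraries. The per-length ratio of Trib2 to Trib1 was 0.998 and 1.13 in JQ1R, against 0.364 and 0.396 in JQ1S. As a share of the summed per-length level of the 3 genes, Trib2 made up 48.1% and 51.8% in JQ1R and 25.9% and 27.5% in JQ1S, and Trib1 made up 48.1% and 46.1% in JQ1R and 71.1% and 69.4% in JQ1S. The share of Trib3 was 3.80% and 2.12% in JQ1R and 3.01% and 3.12% in JQ1S. These values follow from the differences that chose the genes and are a description. The length used matters for the order in JQ1R: with the longest annotated transcript in place of merged exons, which shortens Trib1 to 4330 bases, the ratio of Trib2 to Trib1 was 0.714 and 0.805 in JQ1R and 0.261 and 0.283 in JQ1S, so Trib1 stayed above Trib2 in every library.

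**Figure D2:**
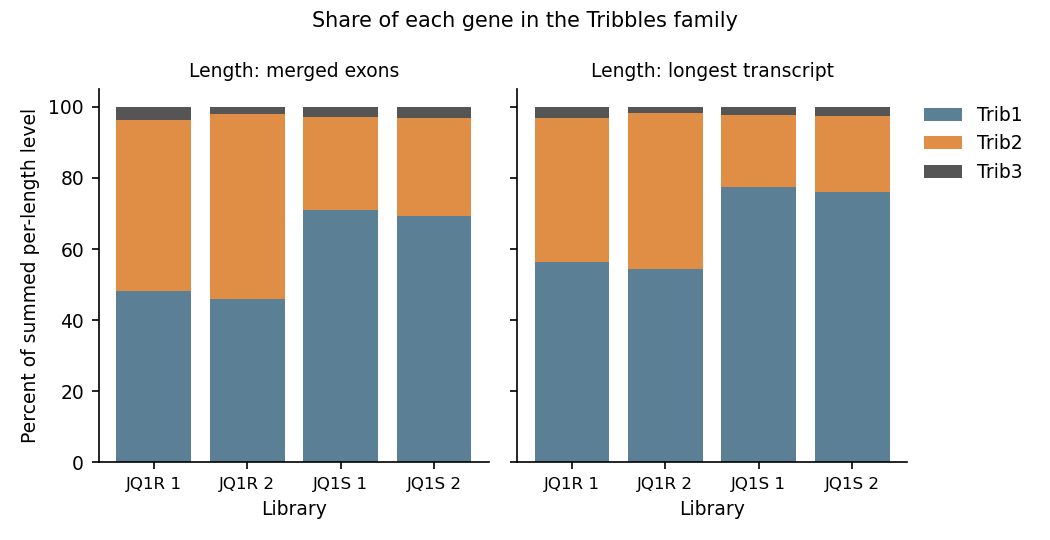
Stacked bars of the percentage that Trib1, Trib2 and Trib3 contribute to the summed per-length level of the family in each library, with JQ1R left of JQ1S, using merged exons (left panel) or the longest transcript (right panel) as the length. With merged exons Trib2 takes 48.1% and 51.8% in JQ1R and 25.9% and 27.5% in JQ1S, and with the longest transcript its share is lower in all 4 libraries.

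The start regions of Trib2 and Trib3, the 2 members for which a sequence was found, are shown to set their base composition side by side. The sequences are RefSeq windows on GRCm38.p6 from 250 bases before to 50 bases after the RefSeq start. They were found for 2 of the 3 genes and are read 5′ to 3′ on the minus strand. The starts used elsewhere here, 15816922 for Trib2 and 152344032 for Trib3, differ from the RefSeq starts but lie inside the windows. Capitals mark matches on either strand to any of 7 short motifs.
Trib2 chr12:15816736-15817035: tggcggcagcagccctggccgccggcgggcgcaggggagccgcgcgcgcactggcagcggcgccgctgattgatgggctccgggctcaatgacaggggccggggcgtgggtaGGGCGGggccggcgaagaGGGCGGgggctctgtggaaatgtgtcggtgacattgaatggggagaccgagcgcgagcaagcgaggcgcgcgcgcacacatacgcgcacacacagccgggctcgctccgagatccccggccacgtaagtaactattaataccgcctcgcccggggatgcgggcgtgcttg
Trib3 chr2:152344011-152344310: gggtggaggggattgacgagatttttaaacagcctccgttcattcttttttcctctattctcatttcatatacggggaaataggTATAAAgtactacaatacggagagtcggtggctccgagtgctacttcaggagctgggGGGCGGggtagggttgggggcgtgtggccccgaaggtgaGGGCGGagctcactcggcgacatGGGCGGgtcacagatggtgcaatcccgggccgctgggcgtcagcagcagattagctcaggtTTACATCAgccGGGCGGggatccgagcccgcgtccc

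The Trib2 window is 71.0% G and C with 40 CpG sites, and the Trib3 window is 58.3% G and C with 21 CpG sites, against medians of 52.7% and 7 over 32851 RefSeq windows of the same length. The GC box GGGCGG was found 2 times in Trib2 and 4 times in Trib3, and in 35.7% of all windows. Trib3 alone of the pair held TATAAA, found in 13.6% of windows, and the C/EBP-ATF response element TGATGNAA, found in 3.97% of windows and read in Trib3 on the opposite strand as TTACATCA. Stress-induced ATF4, CHOP and C/EBP dimers bind elements of that kind. The E-box CACGTG (7.15% of windows), CCAAT (37.4%), the forkhead site GTAAACA (3.65%) and the E2F site GCGGGAA (4.60%) were not found in either window. These matches describe letters in a window and not bound sites.

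The genes whose 4 values ran most like those of Trib2 were found by the distance between log2 CPM values centred on each gene's mean, over the 8746 genes whose log2 CPM averaged 3 or more. The nearest was Tspoap1, which encodes a protein that binds the mitochondrial translocator protein, at a distance of 0.06 log2 units. Tspoap1 stood at 16.6 and 18.9 CPM in JQ1R, against 7.09 and 8.16 CPM in JQ1S. Next came Pcyox1l (distance 0.14) and Zfyve16, an endosomal FYVE-domain protein that binds SMAD proteins (0.24). Zfyve16 stood at 30.8 and 32.7 CPM in JQ1R, against 15.3 and 14.1 CPM in JQ1S. Coro2a, an actin-binding coronin (0.26), and Napepld, a phospholipase that makes N-acylethanolamines (0.28), completed the 5. The 5 lie on chromosomes 11, 18, 13, 4 and 5, none of them that of Trib2.

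The genes most like Trib1 were closer to it, at distances of 0.03 log2 units each, and more genes had differences of that size. They were Etv6, an ETS-family transcriptional repressor, Col27a1, a fibrillar collagen, Gk5, a glycerol kinase, Ppp2r5b, a regulatory subunit of protein phosphatase PP2A, and Pdlim5, a scaffold of the actin cytoskeleton. Etv6 stood at 29.7 and 30.6 CPM in JQ1R, against 36.1 and 36.2 CPM in JQ1S. With 4 libraries of 2 lines, likeness reflects mainly the difference between the lines, and Trib3 was too weakly expressed to be compared.

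**Figure D3:**
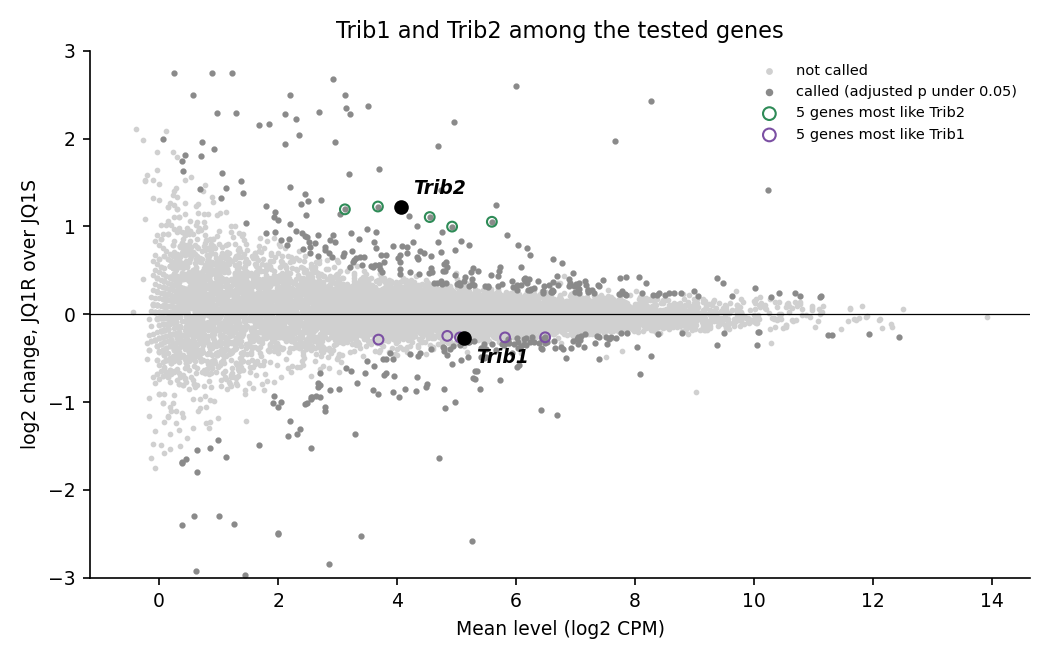
Log2 change, JQ1R over JQ1S, against mean log2 CPM for the 11945 tested genes, with called genes in dark grey, Trib1 and Trib2 as black points and the 5 genes most like each as open circles; 17 genes with changes beyond 3 log2 units in either direction are not shown. Trib2 lies at 1.23 and Trib1 at -0.27, each with its 5 like genes at nearly the same height.

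Of all 11945 tested genes 445, or 3.73%, were called (edgeR quasi-likelihood test, Benjamini-Hochberg adjusted p below 0.05), 263 higher (2.2%) and 182 lower (1.52%) in JQ1R, and the median log2 change of all tested genes was 0.0033. The total was 270 without JQ1R replicate 2, 1381 without JQ1S replicate 1, 1187 without JQ1S replicate 2 and 202 in DESeq2. Lists of genes that act with Tribbles proteins were set against these shares. Their members are no replicates of each other, and no test of a list was made. The lists were chosen with earlier results of these data known, so their counts of calls are a description.

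The ubiquitin ligase partners of Tribbles proteins were expressed in both lines, and their median log2 change was -0.02. By edgeR, by DESeq2 and by limma-voom 0 of the 11 tested genes were called, against 3.73% of all tested genes by edgeR. At that share few or no calls would be found among 11 genes, so the count says little about these partners. Before adjustment 2 had an edgeR p under 0.05, a count for which no share over all genes is given here. Cop1, the ligase that TRIB1 and TRIB2 recruit, stood at 109 and 107 CPM in JQ1R, against 121 and 117 CPM in JQ1S. Its JQ1R libraries lay below its JQ1S libraries, as they did for 23.2% of tested genes. The log2 change of Cop1, -0.14 ± 0.06, did not pass the test (edgeR adjusted p = 0.247). It was -0.16 to -0.12 with any 1 library left out. Trim21, a ubiquitin ligase linked to TRIB2, stood at 6.86 and 8.42 CPM in JQ1R, against 6.63 and 6.80 CPM in JQ1S (log2 change 0.19 ± 0.17, edgeR adjusted p = 0.61), and its log2 change was 0.33 without JQ1R replicate 1 and 0.03 without JQ1R replicate 2.

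Of 33 listed substrates and signalling partners 26 were tested, with a median log2 change of -0.01. Of the 26, 1 was called higher and 1 lower in JQ1R, against 2.2% and 1.52% of all tested genes. Acaca, acetyl-CoA carboxylase, the enzyme that commits acetyl-CoA to fatty acid synthesis and a described target of TRIB3 with COP1, fell to 209 and 207 CPM in JQ1R, against 327 and 340 CPM in JQ1S. Its log2 change was -0.68 ± 0.06 (edgeR adjusted p = 7.32e-07). The 1 higher gene was Bcl2, an inhibitor of apoptosis listed beside AKT signalling with its rise already known. Its call is therefore no result of this list. Bcl2 stood at 105 and 113 CPM in JQ1R, against 18.0 and 18.3 CPM in JQ1S. Cebpa, the substrate through which Trib1 and Trib2 act in myeloid cells, had no row in the table, nor had Cebpd and Cebpe, and Cebpb stood at 9.15 and 8.08 CPM in JQ1R, against 11.3 and 10.4 CPM in JQ1S (log2 change -0.34 ± 0.14, edgeR adjusted p = 0.238). The number called in this list rose without either JQ1S library, as did the number over all tested genes.

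Of the kinases, the FOXO factor and the phosphatase that Tribbles proteins are described to bind or restrain, none of the 4 named here passed the test. Akt1 stood at 358 and 340 CPM in JQ1R, against 365 and 369 CPM in JQ1S (log2 change -0.07 ± 0.06, edgeR adjusted p = 0.554). Map2k1, which encodes MEK1, had a log2 change of 0.08 ± 0.08 (edgeR adjusted p = 0.659), and -0.01 without JQ1S replicate 2. Foxo3 had 0.08 ± 0.08 (edgeR adjusted p = 0.649) and the cell-cycle phosphatase Cdc25c, a described TRIB2 target, 0.16 ± 0.10 (edgeR adjusted p = 0.46). RNA levels do not show the protein or its modification, which is where Tribbles scaffolds act.

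FOXO factors and their targets included 7 called genes of 24 tested and 28 listed, with a median log2 change of 0.08. This list was chosen with earlier results of these data known, so its share of calls is a description and no independent result. Of the 7, 5 were higher and 2 lower, against 2.2% and 1.52% of all tested genes. Ccng2, a cyclin of arrested cells, rose to 61.1 and 63.7 CPM in JQ1R, against 40.8 and 45.5 CPM in JQ1S (log2 change 0.54 ± 0.08, edgeR adjusted p = 4.64e-04). Cdkn1b, the CDK inhibitor p27, rose to 88.9 and 98.6 CPM in JQ1R, against 67.7 and 76.5 CPM in JQ1S (0.38 ± 0.08, edgeR adjusted p = 0.00737, or 0.159 without JQ1R replicate 2). For both genes the JQ1R libraries lay above the JQ1S libraries, as they did for 24.1% of tested genes. The mitophagy receptor Bnip3, also called by edgeR but outside the naming rule and chosen after its values were seen, stood at 87.4 and 98.0 CPM in JQ1R, against 43.6 and 74.3 CPM in JQ1S. The JQ1S libraries of Bnip3 lay far apart, and its log2 change of 0.67 was 0.32 without JQ1S replicate 1 and 1.09 without JQ1S replicate 2, with a DESeq2 adjusted p of 0.879. The sphingosine receptor S1pr1, which guides lymphocytes out of tissues, rose to 41.3 and 39.6 CPM in JQ1R, against 28.7 and 31.7 CPM in JQ1S (0.42 ± 0.09, edgeR adjusted p = 0.00924). S1pr1 had an edgeR adjusted p of 0.0745 without JQ1R replicate 1 and a DESeq2 adjusted p of 0.142. Rag1, which encodes a subunit of the V(D)J recombinase, fell to 55.6 and 54.0 CPM in JQ1R, against 116 and 118 CPM in JQ1S (-1.09 ± 0.07, edgeR adjusted p = 1.63e-08). The interleukin-7 receptor Il7r fell to 90.1 and 96.9 CPM in JQ1R, against 117 and 126 CPM in JQ1S (-0.38 ± 0.07, edgeR adjusted p = 0.00271, or 0.0792 without JQ1R replicate 1). The list was thus not of 1 direction. FOXO1 is known to activate both Rag1 and Il7r in B-cell precursors. Foxo1 itself stood at 56.1 and 52.5 CPM in JQ1R, against 59.9 and 61.9 CPM in JQ1S (log2 change -0.16 ± 0.07, edgeR adjusted p = 0.258). The part of FOXO factors in these differences was not tested.

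Described regulators of Tribbles genes, 18 tested of 30 listed, had a median log2 change of -0.07. Of the 18, 0 were called higher and 1 lower, against 2.2% and 1.52% of all tested genes. E2f4, mainly a repressor of the E2F family, fell to 180 and 170 CPM in JQ1R, against 201 and 219 CPM in JQ1S (log2 change -0.26 ± 0.06, edgeR adjusted p = 0.0241). Its adjusted p was 0.0915 without JQ1R replicate 1, 0.412 without JQ1R replicate 2 and 0.0574 in DESeq2. E2f1 stood at 67.5 and 70.5 CPM in JQ1R, against 57.3 and 63.7 CPM in JQ1S (0.19 ± 0.07, edgeR adjusted p = 0.184, or 0.00594 without JQ1S replicate 2). Notch1, whose pathway has been linked to TRIB2 in T-cell leukaemia, stood at 19.1 and 18.3 CPM in JQ1R, against 21 and 30.9 CPM in JQ1S (-0.45 ± 0.14, edgeR adjusted p = 0.106). The JQ1S libraries of Notch1 lay far apart, and it was called without JQ1S replicate 1 (2.07e-08), without JQ1R replicate 1 (0.0418) and with the replicate number as a block (0.00213). Its log2 change was -0.73 without JQ1S replicate 1 and -0.17 without JQ1S replicate 2, where the adjusted p was 0.435. The list had 2 calls with the block, where 595 of all tested genes were called. Its number called fell without JQ1R replicate 2 and rose without either JQ1S library, as did the number over all tested genes. Hoxa9, Pitx1 and Gata1, described regulators in other lineages, had no row in the table.

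The integrated stress response, through which Trib3 is induced, had 1 called gene of 37 tested and 42 listed, against 3.73% of all tested genes. That gene was Ddit4, an inhibitor of mTORC1 that hypoxia and glucocorticoids also induce, which rose to 116 and 122 CPM in JQ1R, against 67.4 and 87.2 CPM in JQ1S (log2 change 0.63 ± 0.09, edgeR adjusted p = 4.11e-04). Most log2 changes in the list were small and below 0: 32 of the 37 had a log2 change below 0, and the median was -0.08, whereas 50.9% of all tested genes had one above 0. Atf4, the factor at its centre, stood at 236 and 232 CPM in JQ1R, against 245 and 253 CPM in JQ1S (-0.09 ± 0.06, edgeR adjusted p = 0.451). Ddit3, which encodes CHOP, was low at 4.12 and 5.81 CPM in JQ1R, against 4.93 and 5.34 CPM in JQ1S. The asparagine synthetase Asns, an ATF4 target in cells whose medium contained asparagine, had a log2 change of -0.11 ± 0.08 (edgeR adjusted p = 0.472). The number called in this list rose without either JQ1S library, as did the number over all tested genes.

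Among other pseudokinases, 25 tested of 40 listed, the median log2 change was -0.00077. Of the 25, 0 were called higher and 2 lower, against 2.2% and 1.52% of all tested genes. Erbb3, a receptor with an impaired kinase that signals through its partners, stood at 31.0 and 27.1 CPM in JQ1R, against 37.5 and 36.6 CPM in JQ1S (log2 change -0.35 ± 0.09, edgeR adjusted p = 0.039). Peak1, a scaffold of the cytoskeleton, stood at 33.1 and 33.7 CPM in JQ1R, against 40.5 and 42.1 CPM in JQ1S (-0.30 ± 0.08, edgeR adjusted p = 0.049). Both calls were near the threshold, and the number called was 0 in DESeq2, 0 with library size as the only scaling and 1 in limma-voom. The number called fell without either JQ1R library and rose without JQ1S replicate 2, as did the number over all tested genes. Stk40, the pseudokinase closest to the Tribbles family and also a COP1 adaptor, stood at 29.6 and 26.6 CPM in JQ1R, against 33.9 and 32.2 CPM in JQ1S (-0.24 ± 0.09, edgeR adjusted p = 0.184, or 0.046 without JQ1S replicate 2).

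**Figure D4:**
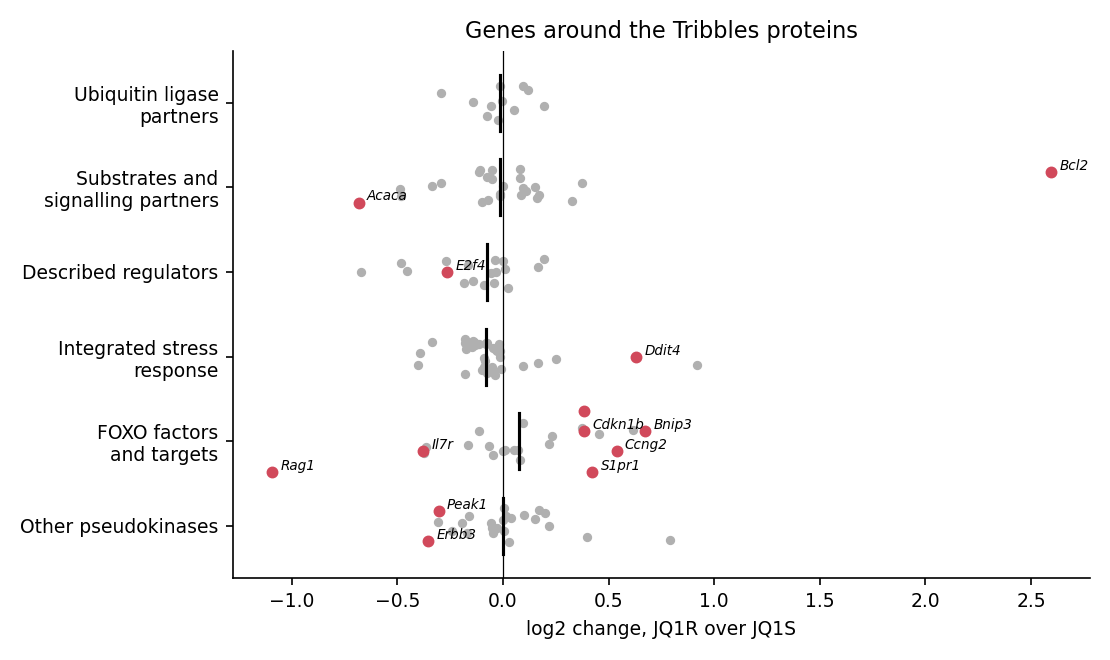
Log2 change, JQ1R over JQ1S, of each tested gene in 6 lists around the Tribbles proteins, with called genes in red and those given in the text named, genes that were not called in grey and the median of each list as a black bar; vertical scatter within a list has no meaning. Medians lie between -0.08 and 0.08, with Bcl2 and Rag1 farthest from 0; Bnip3 is labelled among the called FOXO genes.

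Neighbouring genes were set beside each member as a description. Near Trib2 only 1 was tested, 994 kb away, so whether the difference of Trib2 extends along its chromosome cannot be told. Of 44 genes of the table that start within 1 Mb of a Tribbles gene, 34 were tested, 2 were higher in JQ1R and 0 lower, against 2.2% and 1.52% of all genes. Around Trib2 there were 3 genes in the table, and the 1 tested was E2f6, an E2F-family repressor 994 kb upstream. E2f6 stood at 37.3 and 41.1 CPM in JQ1R, against 40.1 and 32.7 CPM in JQ1S (log2 change 0.10 ± 0.10, edgeR adjusted p = 0.666, and -0.03 without JQ1S replicate 2).

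Around Trib1, 10 of 12 genes were tested, all of them upstream. The nearest tested was Nsmce2, a SUMO ligase subunit of the SMC5/6 complex, with a log2 change of -0.13 ± 0.09 (edgeR adjusted p = 0.514), which was -0.25 without JQ1R replicate 1 and -0.0094 without JQ1R replicate 2. Sqle, squalene epoxidase of cholesterol synthesis, 333 kb upstream, was higher at 146 CPM in both JQ1R libraries, against 126 and 110 CPM in JQ1S (0.30 ± 0.07, edgeR adjusted p = 0.0191). This was opposite to Trib1, and its adjusted p was 0.108 without JQ1R replicate 1, 0.107 without JQ1R replicate 2 and 0.0617 in DESeq2.

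Around Trib3, 23 of 29 genes were tested. The processed pseudogene Gm14165, 9.58 kb upstream (log2 change 0.04), and Rbck1, a subunit of the linear ubiquitin ligase 11.4 kb downstream, at 218 and 200 CPM in JQ1R and 193 and 208 CPM in JQ1S (0.06 ± 0.06, edgeR adjusted p = 0.691), flanked it at high levels while Trib3 stayed below 1 CPM. Rps15a-ps7, a processed pseudogene 158 kb downstream, was called higher (0.23 ± 0.06, edgeR adjusted p = 0.0466), a call lost without JQ1R replicate 1 (0.61), without JQ1R replicate 2 (0.0853) and in DESeq2 (0.152). Reads of both pseudogenes may belong to their parent genes, so their counts are uncertain. The number of neighbours called fell without either JQ1R library and rose without either JQ1S library, as did the number over all tested genes.

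**Figure D5:**
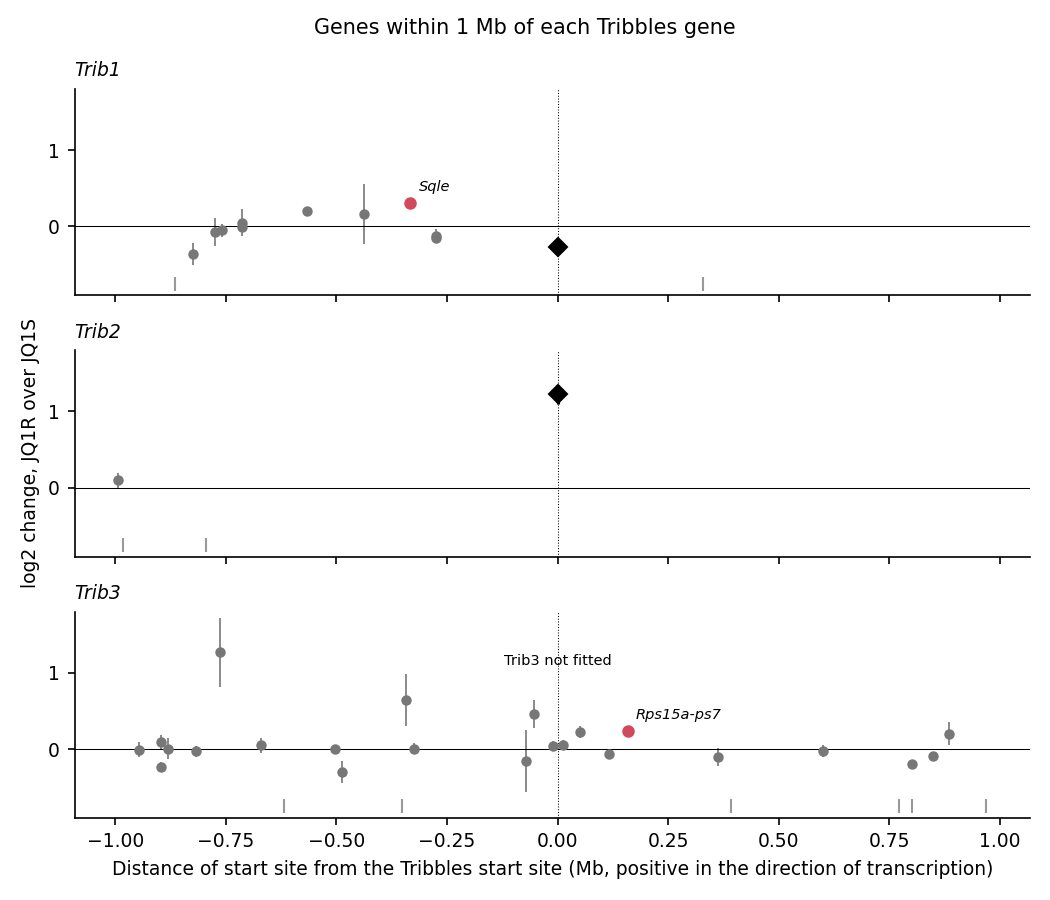
Log2 change, JQ1R over JQ1S, with its SE as a bar, of tested genes that start within 1 Mb of each Tribbles gene, against the distance between start sites in Mb along the strand of the Tribbles gene; the black diamond is the Tribbles gene, red points are called genes and ticks at the foot of each panel are genes not tested. Trib2 lies at 1.23 with 1 tested neighbour at 0.10, and Trib3 was not fitted.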

How the data were processed

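RNA-seq counts of 4 libraries, 2 per line, were used. The authors deposited whole-number counts per Ensembl gene without normalization, in 1 table whose 4 columns all matched a library by name. Per the submitters' processing notes, FastQC, cutadapt 1.7, TopHat, Bowtie2, HTSeq and limma were used with GRCm38 and mm10; what each did, whether counting used strand and which annotation it used is not given in the sources used here. Per the labels' protocols, libraries were made with a TruSeq RNA kit. Each row sums to at least 4 counts, so rarer genes have no row. GENCODE M21 (GRCm38) gave symbols, positions and lengths for 16393 of 16591 identifiers.

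Counts were fitted with edgeR 4.0.16 (R 4.3.3; TMM, quasi-likelihood test, line as the only term), after filterByExpr with a minimum count of 10 and total of 15, which kept 11945 genes. P-values were adjusted by Benjamini-Hochberg over all of them, and genes below 0.05 were called. SEs came from the quasi-likelihood F. Log2 CPM for like patterns used a prior count of 2. DESeq2 1.42.0, limma-voom (limma 3.58.1), other scalings, no filter, a replicate block and leaving out each library were alternatives. The fit was tested on simulated data.

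The members, 6 pathway lists (184 entries, some genes in more than 1) and marker lists were chosen with earlier results of these data known. Named genes are 15 key genes, up to 6 called members per list, called and nearest neighbours and the 5 genes most like Trib1 and Trib2, 42 in all; markers, genes without a row and Bnip3 fall outside this rule, and 1 of the 42 is not reported here.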

Additional observations from a re-analysis of the deposited data

How the results depend on the processing

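The log2 change of Trib2 was 1.21 to 1.24 under the other scalings, tests, filter and block, and 1.09 to 1.34 with any 1 library left out; that of Trib1 was -0.27 to -0.25 and -0.30 to -0.23. For Trib3 it was 0.23 with no filter and 0.24 in DESeq2, and -0.15 to 0.56 with 1 library left out. With the longest transcript as the length the mean ratio of Trib2 to Trib1 was 0.760 in JQ1R and 0.272 in JQ1S, against 1.06 in JQ1R and 0.380 in JQ1S with merged exons. DESeq2 called 202 genes, 118 higher and 84 lower. With 1 library left out 270 to 1381 were called, 159 to 663 higher and 111 to 718 lower, where the lone library is assumed to vary like the other line's. DESeq2 called 0 regulators, 0 pseudokinases and 0 neighbours. Library size as the only scaling gave 0 pseudokinases, limma-voom gave 1, and DESeq2's size factors gave 1 neighbour. Leaving out 1 library gave 2 to 4 substrates and partners, 0 to 3 regulators, 1 to 9 stress response genes, 5 to 10 FOXO genes, 0 to 4 pseudokinases and 0 to 7 neighbours. The replicate numbers share only a number (correlation of deviations -0.02), and with the replicate block the count was 595, with 2 regulators. Over all named genes and alternatives, 380 values kept direction and call, 25 lost and 9 gained the call. Another 6, none called, changed sign with 1 library left out: the log2 change ran from -0.0086 to 0.18 for Map2k1, -0.031 to 0.26 for E2f6, -0.31 to 0.18 for Ddit3, -0.014 to 0.10 for Gm14165 and -0.0041 to 0.12 for Rbck1. Leaving out 1 library moved the log2 change of 12 named genes by over 1.5 times, and 0 of these were called. Bnip3, called by edgeR, is outside this count, and its values were added after seeing the data. Its log2 change was 0.67 with all libraries, 0.32 without JQ1S replicate 1 and 1.09 without JQ1S replicate 2. The cause of these shifts was not tested. Depth limits Trib3, at 6 to 9 reads per library.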
